A study of Mus musculus with 6 samples.

Results

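Calcineurin and the NFAT transcription factors form a calcium-operated switch, and 10 genes of it were examined here by name, out of 21017 genes in the count table. They are the factors Nfatc1, Nfatc2, Nfatc3 and Nfat5, the calcineurin subunits Ppp3ca, Ppp3cb, Ppp3cc and Ppp3r1, and the inhibitors Rcan1 and Cabin1. All 10 had a row and all 10 passed the filter on low counts. The cells were group 2 innate lymphoid cells (ILC2s), lymphocytes without rearranged antigen receptors that make type 2 cytokines, taken from lungs of C57BL/6J mice, 8 weeks old, with the IL-10GFP allele, a fluorescent reporter of Il10. Every mouse received 3 intranasal doses of 0.5 µg recombinant IL-33, an alarmin that activates ILC2s, and sorted ILC2s were then kept in culture for 48 h under IL-4, IL-7 and IL-2 (10 ng/mL of each). A second sort gave the IL-10-producing ILC2s (3 libraries) and the IL-10-negative ILC2s (3 libraries), so that the reporter allele, IL-33 and the cytokines were common to both populations. The cell type field of the labels nevertheless calls the cells freshly sorted. Whether the 3 libraries of a population came from separate mice or cultures is not stated. A p-value here therefore rests on the spread between libraries, estimated in part over all genes, and that spread may be technical.

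In resting lymphocytes NFATc proteins are phosphorylated and held in the cytoplasm. A rise in cytosolic calcium, fed by release from the endoplasmic reticulum and then by entry through ORAI channels, loads calmodulin, which activates the phosphatase calcineurin. Calcineurin strips phosphates from NFATc proteins, these enter the nucleus and bind DNA at a GGAAA core, often beside AP-1, and kinases such as DYRK, GSK3 and CK1 return them to the cytoplasm. In T cells the pathway drives cytokine genes and is the target of ciclosporin and tacrolimus, and in ILC2s NFAT activity has been tied to cytokine production after calcium-mobilising signals. NFAT5 is the exception in the family, since it lacks the calcineurin docking region and responds to osmotic stress.

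Libraries held 47012941 to 69511433 estimated counts, and each member had between 406 and 16710 of them per library. Il10, the gene behind the sort, averaged 848 ± 7.78 CPM in IL-10-producing libraries, against 13.5 ± 0.608 CPM in the IL-10-negative ones (SD, n = 3 each), which checks the labels and is no finding. CPM, here and throughout, is a library's counts scaled by its total and its TMM factor. All 12 ILC2 markers stood at 5 CPM or more in the IL-10-producing libraries. Of these 12, 4 were called higher and 6 lower. Most markers of other cells were lower there. For T cells, 11 of 12 markers were called lower and 1 higher, with a summed level of 103 to 105 CPM in IL-10-producing against 169 to 175 CPM in IL-10-negative libraries. Trbc2 and Ubash3a carried most of that sum, and the other 10 markers, all called lower, summed to 8.27 to 8.96 against 67.7 to 70.2 CPM. For mast cells, basophils and neutrophils, 12 of 13 were called lower, with sums of 14.1 to 16.3 against 107 to 112 CPM. For NK cells, 3 of the 4 with a row were called lower, with sums of 0.112 to 0.263 against 6.28 to 7.55 CPM, and Ncr1 was at 0 in all IL-10-producing libraries. The B-cell sums were 15.7 to 17.2 against 16.9 to 17.6 CPM (4 of 5 markers lower), and the macrophage sums 7.04 to 8.55 against 6.79 to 8.30 CPM (1 higher and 2 lower of 5 with a row). Cd79b, not called, carried most of the B-cell sum, at 14.8 to 16.3 against 13.9 to 14.9 CPM. Chil3, called higher, carried most of the macrophage sum, at 6.13 to 7.12 against 5.14 to 5.64 CPM. Fewer cells of a type and less RNA per cell cannot be told apart in such bulk libraries, and the part of these other cells in the results on NFAT and calcineurin genes was not tested.

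Start-site sequences of 3 members are shown because the GGAAA core that NFAT proteins bind can be read in them, and because they belong to the NFAT factor with the largest rise, to the catalytic subunit with the smallest p and to the inhibitor that fell. Each is 300 bases of GRCm38.p6 from RefSeq, 250 before and 50 after the start site, given 5′ to 3′ on the gene's own strand (all minus), and capitals mark GGAAA or its complement TTTCC.
Rcan1 upstream start, chr16:92466120-92466419: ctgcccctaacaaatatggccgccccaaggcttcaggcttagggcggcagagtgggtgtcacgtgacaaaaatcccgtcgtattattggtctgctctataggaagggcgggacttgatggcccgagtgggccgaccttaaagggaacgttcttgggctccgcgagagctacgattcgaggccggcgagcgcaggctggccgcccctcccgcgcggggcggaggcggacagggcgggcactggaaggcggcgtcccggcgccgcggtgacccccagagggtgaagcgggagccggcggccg
Rcan1 downstream start, chr16:92400029-92400328: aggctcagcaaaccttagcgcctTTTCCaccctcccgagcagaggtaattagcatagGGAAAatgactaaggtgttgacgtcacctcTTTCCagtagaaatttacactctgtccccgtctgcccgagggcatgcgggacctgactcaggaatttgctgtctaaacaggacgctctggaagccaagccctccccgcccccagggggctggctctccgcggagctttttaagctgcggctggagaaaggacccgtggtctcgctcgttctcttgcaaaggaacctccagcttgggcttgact
Nfatc2 upstream start, chr2:168601608-168601907: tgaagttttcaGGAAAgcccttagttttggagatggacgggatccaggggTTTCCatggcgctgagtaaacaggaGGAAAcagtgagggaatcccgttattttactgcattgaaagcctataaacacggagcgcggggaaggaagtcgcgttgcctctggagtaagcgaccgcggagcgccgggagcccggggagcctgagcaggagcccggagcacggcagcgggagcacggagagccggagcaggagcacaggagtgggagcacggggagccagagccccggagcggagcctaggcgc
Nfatc2 downstream start, chr2:168590316-168590615: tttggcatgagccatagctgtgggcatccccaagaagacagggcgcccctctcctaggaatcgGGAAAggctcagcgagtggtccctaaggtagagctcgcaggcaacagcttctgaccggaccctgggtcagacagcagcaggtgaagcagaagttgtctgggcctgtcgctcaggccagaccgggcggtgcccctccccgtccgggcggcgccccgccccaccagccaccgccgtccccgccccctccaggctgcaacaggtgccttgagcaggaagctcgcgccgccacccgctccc
Ppp3cb start, chr14:20546524-20546823: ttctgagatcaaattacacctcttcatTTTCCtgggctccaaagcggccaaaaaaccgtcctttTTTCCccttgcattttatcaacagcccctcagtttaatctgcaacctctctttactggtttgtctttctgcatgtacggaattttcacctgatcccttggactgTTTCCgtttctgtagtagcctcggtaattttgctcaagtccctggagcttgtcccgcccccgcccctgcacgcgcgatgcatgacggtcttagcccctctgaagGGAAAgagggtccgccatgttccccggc

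The pair of Rcan1 start sites lies 66.1 kb apart. The downstream window held 3 GGAAA matches on either strand and 1 match to the AP-1 motif TGANTCA, and the upstream window held 0 of each. At least 3 GGAAA matches occurred in 9.42% of the 32851 windows of this length in the RefSeq table, at least 1 in 61.3%, and TGANTCA in 7.81%. As background, the shorter RCAN1 transcript, made from an internal start, is a known calcineurin and NFAT target in human and mouse cells, so Rcan1 is often read as a reporter of the pathway. The counts here are per gene and do not separate the transcripts. Of the pair of Nfatc2 windows, whose start sites lie 11.3 kb apart, the upstream held 3 matches and the downstream 1. The Ppp3cb window held 4, and at least 4 occurred in 2.65% of all windows. Windows of 7 members were in the table, 10 windows in all, and 6 of the 10 held GGAAA. A match in such a window is a description of its letters and no evidence of binding.

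The members split in direction, and every difference was small. Of the 10 genes, 3 rose and 4 fell in IL-10-producing cells, and 3 did not pass the test (edgeR's quasi-likelihood test, Benjamini-Hochberg adjusted p at most 0.05 over 16654 genes). Across all genes tested, 35.7% were called, 17.1% as higher and 18.6% as lower. The lowest level of any member in a library was 8.68 CPM, while 6106 of the 16654 genes were under 5 CPM in both populations. With at least 50 counts in 3 samples, 7 members and 5726 of 13257 genes were called. With library size only in place of TMM factors the members split as 2 higher and 5 lower, and all genes as 2206 higher and 3794 lower, against 2840 and 3103 with TMM. The log2 fold changes, IL-10-producing over IL-10-negative, ran from -0.26 to 0.25 with a median of -0.02, and the median over all genes was -0.0038. The median absolute log2 fold change of the members was 0.11, against 0.14 over all genes tested. Libraries of the populations did not overlap for 7 members, 3 higher and 4 lower, while 45.2% of all genes tested showed no overlap (21.7% higher and 23.5% lower).

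**Figure D1:**
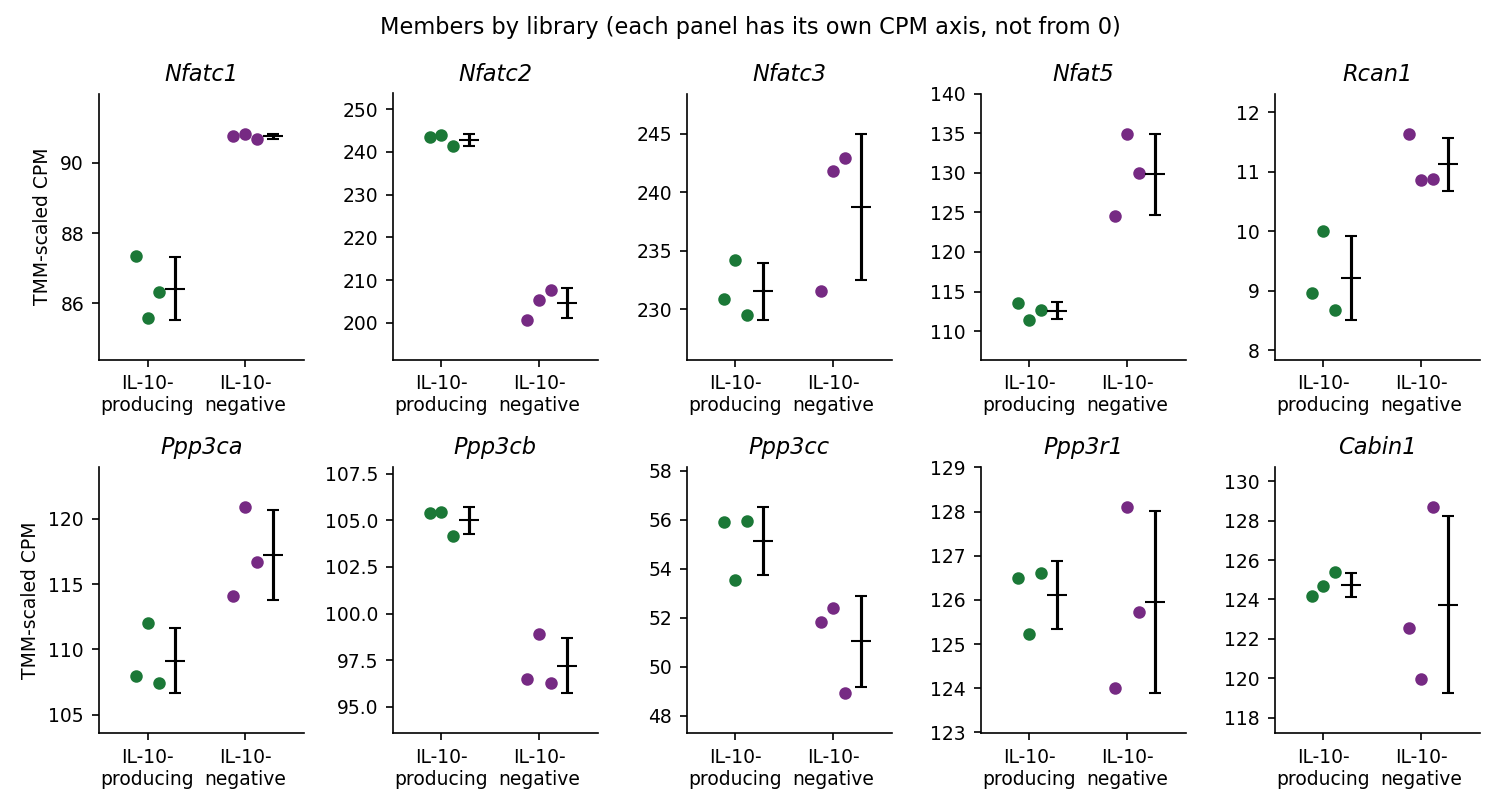
TMM-scaled CPM (vertical axis, a separate scale that does not start at 0 in each panel) of the 10 members in each of 3 IL-10-producing and 3 IL-10-negative libraries, with the mean and SD beside the points. Nfatc2, Ppp3cb and Ppp3cc lie higher in every IL-10-producing library, Nfatc1, Nfat5, Rcan1 and Ppp3ca lower, and Nfatc3, Ppp3r1 and Cabin1 overlap.

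Among the NFAT factors, Nfatc2 (NFAT1; ENSMUSG00000027544.16, chromosome 2, 168476410 to 168601657, minus strand, mm10), the form prominent in resting T cells, rose. Its level was 244, 244 and 241 CPM in IL-10-producing libraries, against 201, 205 and 208 CPM in IL-10-negative libraries. All IL-10-producing libraries lay above all IL-10-negative ones, and the gap between the populations was wider than the spread within either. The difference was 1.19-fold (log2 fold change 0.25, SE 0.0209, edgeR adjusted p = 5.79e-10), and the call held in each of the 8 other settings of scaling, filter, test or design that do not change the null hypothesis and without each library in turn. In absolute log2 fold change Nfatc2 exceeded 69.2% of all genes tested.

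Nfatc1 (NFAT2; ENSMUSG00000033016.15, chromosome 18, 80606205 to 80713071, minus strand), which in T cells is induced by NFAT itself and builds up after activation, had 87.4, 85.6 and 86.3 CPM in IL-10-producing libraries, against 90.8, 90.8 and 90.7 CPM in IL-10-negative libraries. The libraries did not overlap, and the IL-10-negative ones were almost level with each other. The fall of 0.07 on the log2 scale only just passed (SE 0.0266, edgeR adjusted p = 0.0404). The call was lost with DESeq2 size factors (adjusted p = 0.0535), in DESeq2's own test (0.101) and with each of the 6 libraries left out in turn (0.0673 to 0.138).

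Nfatc3 (NFAT4; ENSMUSG00000031902.10, chromosome 8, 106058840 to 106130537, plus strand), another calcineurin-regulated member, had 230.9, 234.2 and 229.5 CPM in IL-10-producing and 231.6, 241.8 and 242.9 CPM in IL-10-negative libraries. The libraries overlapped, since the first IL-10-negative library lay among the IL-10-producing ones. The gene did not pass the test (log2 fold change -0.04, SE 0.022, edgeR adjusted p = 0.126), but it did, as lower, with library size only (adjusted p = 0.00842) and without IL-10-negative replicate 1 (0.0388). Of its exonic bases, 1.87% are shared with Esrp2 on the opposite strand, which was under 0.5 CPM in both populations.

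Nfat5 (ENSMUSG00000003847.16, chromosome 8, 107293470 to 107379517, plus strand), the osmotic stress factor, fell. It had 113.6, 111.5 and 112.7 CPM in IL-10-producing libraries, against 124.5, 134.8 and 130.0 CPM in IL-10-negative libraries. The IL-10-producing libraries were tightly grouped and all lay under the lowest IL-10-negative one. The log2 fold change was -0.21 (SE 0.0276, edgeR adjusted p = 1.28e-06), and without each library in turn it ran from -0.23 to -0.18 with the call kept every time.

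The catalytic subunits of calcineurin went opposite ways. Ppp3ca (ENSMUSG00000028161.17, chromosome 3, 136670124 to 136937727, plus strand) encodes the alpha form, one of the forms with broad expression. It had 108, 112 and 107 CPM in IL-10-producing libraries, against 114, 121 and 117 CPM in IL-10-negative libraries. It fell by 0.10 on the log2 scale (SE 0.0273, edgeR adjusted p = 0.00438), and its highest IL-10-producing library lay just under its lowest IL-10-negative one.

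Ppp3cb (ENSMUSG00000021816.11, chromosome 14, 20499364 to 20546573, minus strand), the beta form, had 105, 105 and 104 CPM in IL-10-producing libraries, against 96.5, 98.9 and 96.3 CPM in IL-10-negative libraries. All IL-10-producing libraries were higher, and the rise was 1.08-fold (log2 fold change 0.11, SE 0.0257, edgeR adjusted p = 0.00123). Ppp3cc (ENSMUSG00000022092.11, chromosome 14, 70217865 to 70289471, minus strand), the gamma form, best known from testis, had 55.9, 53.5 and 56.0 CPM in IL-10-producing libraries, against 51.8, 52.4 and 48.9 CPM in IL-10-negative libraries. It too rose 1.08-fold (SE 0.0362 on the log2 scale, edgeR adjusted p = 0.0193), with a narrow gap between the populations. Its call was lost under scaling by library size alone (adjusted p = 0.0981), without IL-10-producing replicate 1 (0.0687) or 3 (0.0504) and without IL-10-negative replicate 3 (0.127).

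Ppp3r1 (ENSMUSG00000033953.10, chromosome 11, 17159263 to 17200375, plus strand) encodes calcineurin B, the calcium-binding regulatory subunit that every catalytic form needs. Its level was 126.5, 125.2 and 126.6 CPM in IL-10-producing and 124.0, 128.1 and 125.7 CPM in IL-10-negative libraries, with full overlap. The log2 fold change was 0.0014 (SE 0.0242, edgeR adjusted p = 0.974), and its sign turned with library size only and without IL-10-negative replicate 1. Exons of the neighbour Wdr92 on the same strand share 14.3% of the exonic bases of Ppp3r1, and Wdr92 averaged 18.3 CPM in IL-10-producing libraries, against 19.0 CPM in IL-10-negative ones.

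Of the inhibitors, Rcan1 (regulator of calcineurin 1; ENSMUSG00000022951.16, chromosome 16, 92391953 to 92470867, minus strand) fell. It had 8.96, 10.0 and 8.68 CPM in IL-10-producing libraries, against 11.6, 10.9 and 10.9 CPM in IL-10-negative libraries. The second IL-10-producing library came closest to the IL-10-negative ones but stayed below them. The log2 fold change was -0.26 (SE 0.0741, edgeR adjusted p = 0.00628), and the call was kept without each library in turn (adjusted p = 0.00279 to 0.0356). Rcan1 was the member with the fewest counts, 406 to 686 per library, and its SE was the largest. Cabin1 (ENSMUSG00000020196.10, chromosome 10, 75646112 to 75764341, minus strand), a large protein that binds and inhibits calcineurin and also represses MEF2 factors, had 124.2, 124.7 and 125.4 CPM in IL-10-producing and 122.6, 119.9 and 128.7 CPM in IL-10-negative libraries. The IL-10-negative libraries spread on both sides of the IL-10-producing ones, and the gene did not pass (log2 fold change 0.01, SE 0.0266, edgeR adjusted p = 0.781). Its sign turned with library size only and without IL-10-negative replicate 2.

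**Figure D2:**
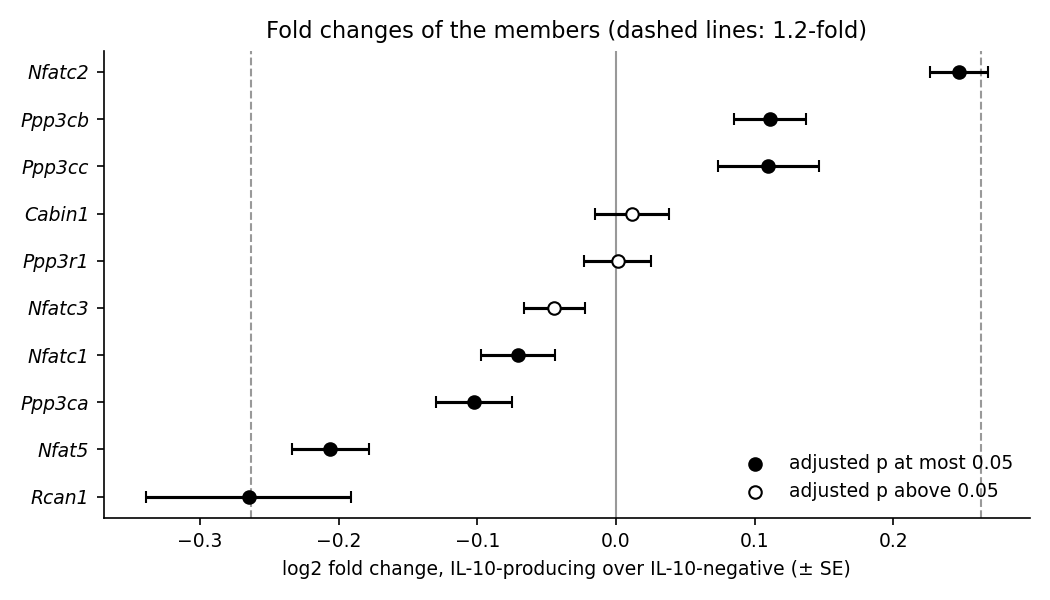
Log2 fold change (horizontal axis, IL-10-producing over IL-10-negative) with its SE for each member, filled where the adjusted p was at most 0.05, with dashed lines at a change of 1.2-fold in either direction. Nfatc2 at 0.25 and Rcan1 at -0.26 lie farthest from 0, and the SE bars of both reach a dashed line.

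No member passed a stricter test against a change of 1.2-fold (edgeR's glmTreat), by adjusted p or by an unadjusted p under 0.05, and 7.91% of all genes did by adjusted p. The plain tests against no change called 7 members with edgeR, 6 with DESeq2 and 7 with limma-voom.

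Levels were compared between members only per kilobase of the longest GENCODE M21 transcript. On that scale the order was the same in both populations, from Ppp3r1 through Nfatc3, Nfatc2, Ppp3cb, Ppp3ca, Ppp3cc, Nfatc1, Cabin1 and Nfat5 to Rcan1. Ppp3r1 averaged 44.1 ± 0.271 CPM per kb in IL-10-producing and 44.1 ± 0.72 CPM per kb in IL-10-negative libraries (SD, n = 3 each), and Rcan1 3.97 ± 0.302 and 4.79 ± 0.192 CPM per kb. Neighbours in the order did not overlap between libraries, except Ppp3cb and Ppp3ca in the IL-10-negative population. The gap between Ppp3ca and Ppp3cc in IL-10-producing libraries was narrow, with 22.6 CPM per kb as the lowest Ppp3ca and 22.4 CPM per kb as the highest Ppp3cc library. The order depends on the lengths used: with the median transcript length of each gene, 1 member of 10 (Rcan1, the lowest) kept its place in IL-10-producing libraries and 2 (Nfatc3 and Rcan1) in IL-10-negative ones. With that length the populations no longer shared one order, since Nfatc2 stood above Nfatc3 and Ppp3ca in IL-10-producing libraries and below both in IL-10-negative ones.

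**Figure D3:**
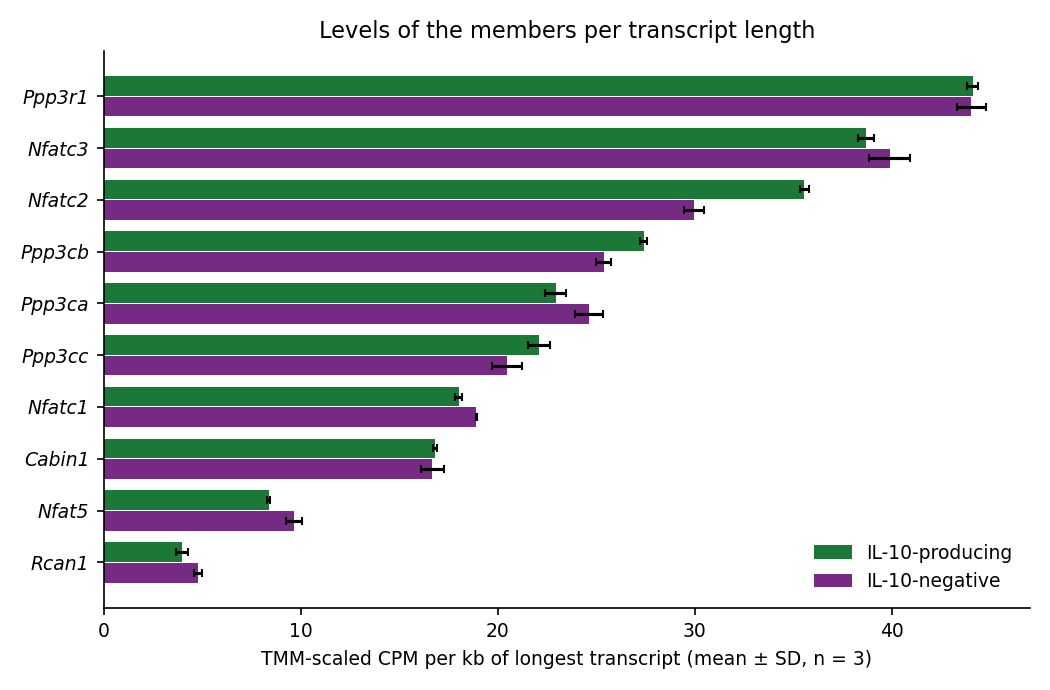
Mean TMM-scaled CPM per kb of longest transcript (horizontal axis, from 0) with SD over 3 libraries for each member in IL-10-producing and IL-10-negative libraries. Ppp3r1, Nfatc3 and Nfatc2 are at the top and Nfat5 and Rcan1 at the bottom in both.

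Nfatc2 made up more of the NFAT family in IL-10-producing than in IL-10-negative libraries. Per kb, Nfatc2 made up 35.3%, 35.4% and 35.3% of the summed level of the 4 factors in IL-10-producing libraries, against 30.5%, 30.2% and 30.6% in IL-10-negative libraries. The libraries of each population were nearly level, and the populations were apart. With these lengths Nfatc3 was the largest part at 38.4 ± 0.277% in IL-10-producing and 40.5 ± 0.296% in IL-10-negative libraries, followed below Nfatc2 by Nfatc1 at 17.9 ± 0.202% and 19.2 ± 0.370% and Nfat5 at 8.32 ± 0.0961% and 9.80 ± 0.248% (SD, n = 3 each). The sum itself was 101 ± 0.51 CPM per kb in IL-10-producing and 98.4 ± 1.87 CPM per kb in IL-10-negative libraries. Since shares add to 100%, a larger share of Nfatc2 lowers the others by construction, so the fall in share of Nfatc3 is no sign that its own level fell. With the median transcript length, Nfatc2 was the largest part in IL-10-producing libraries, at 42.1% against 36.7% in IL-10-negative ones, and Nfatc3 was at 38.4% against 41.0%.

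Among catalytic subunits, Ppp3ca held 31.7 ± 0.691% of the summed level per kb in IL-10-producing and 35.0 ± 0.593% in IL-10-negative libraries, and Ppp3cb 37.8 ± 0.153% and 36.0 ± 0.266% (SD, n = 3 each). Neither share overlapped between populations. Ppp3cc held 30.5 ± 0.798% and 29.0 ± 0.695%, with overlap. The summed level of the 3 forms overlapped too, at 72.5 ± 0.209 CPM per kb in IL-10-producing and 70.5 ± 1.56 CPM per kb in IL-10-negative libraries. With the median transcript length the order turned, with Ppp3ca at 49.6% and Ppp3cb at 31.1% in IL-10-producing libraries, against 53.3% and 28.8% in IL-10-negative ones, and Ppp3cc at 19.3% against 17.8% no longer overlapped. No test was run on these sums and shares.

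**Figure D4:**
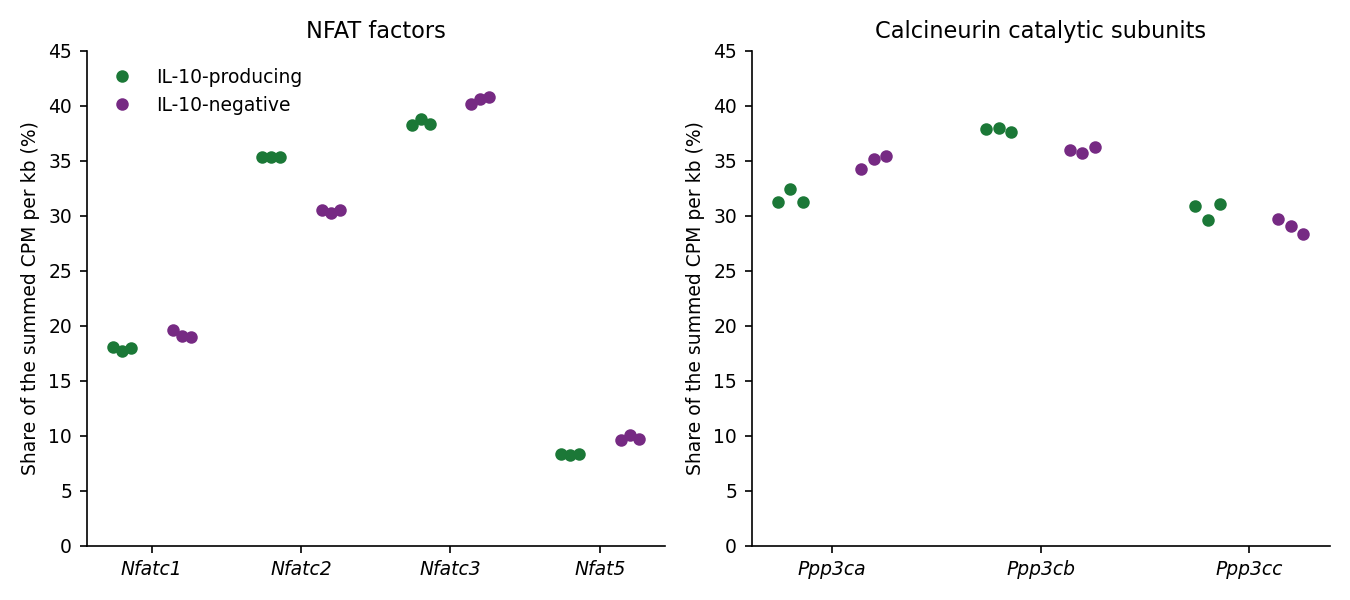
Share of the summed CPM per kb (vertical axis, percent, from 0) of the 4 NFAT factors and of the 3 catalytic calcineurin subunits in each library. The Nfatc2 share is about 35% in IL-10-producing and about 30% in IL-10-negative libraries, and Ppp3ca is lower and Ppp3cb higher in the IL-10-producing ones.

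Genes whose level followed a member most closely over the 6 libraries were named by Pearson's r of log2 CPM among 10400 genes with at least 5 CPM. The libraries fall into 2 populations, so a high r mostly reflects a shared difference between them, and no p is given. Nfatc2 was most like Calu, Stx11 and Exo1 (r = 1.00, 0.999 and 0.999), and 173 genes had an r of at least 0.99 with it. Ppp3cb was most like Bace2, Hsph1 and Lef1 (r = 0.999, 0.998 and 0.998), with 34 such genes. Rcan1 was most like Trip10, Vav1 and Map4k2 (r = 0.999, 0.997 and 0.996), with 8 such genes. As for size, Stx11 averaged 129.8 CPM in IL-10-producing libraries, against 98.8 CPM in IL-10-negative ones.

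The genes upstream of calcineurin differed more often than not, again by little and in both directions. In the list of calcium entry and calmodulin, 6 of 13 genes rose and 4 fell, with a median log2 fold change of -0.04 against -0.0038 over all genes tested. Under scaling by library size alone the split was 5 higher and 6 lower. Over all genes tested, 17.1% were called higher and 18.6% lower. Genes under 5 CPM in both populations numbered 0 in the list and 6106 among the 16654 tested. With at least 50 counts in 3 samples, 6 of the list rose and 5 fell, and 5726 of 13257 genes were called. Orai2, a calcium channel subunit of the plasma membrane, fell to 61.6 ± 2.75 CPM in IL-10-producing libraries, against 78.1 ± 0.924 CPM in IL-10-negative libraries (log2 fold change -0.34, SE 0.033, edgeR adjusted p = 7.24e-09). Orai1, the main pore subunit in T cells, fell by 0.19 on the log2 scale, as did Plcg1, the phospholipase that starts calcium release, by 0.17. Itpr1, an IP3 receptor that releases calcium from the endoplasmic reticulum, rose to 291 ± 1.34 against 259 ± 5.38 CPM (log2 fold change 0.17). Calm2, a calmodulin gene, rose to 182 ± 4.11 against 159 ± 4.05 CPM (log2 fold change 0.19). Calm3, which encodes the same protein, rose by 0.08 on the log2 scale but did not pass when scaled by library size alone (adjusted p = 0.0649). Stim2, a calcium sensor of the endoplasmic reticulum, rose by 0.15 on the log2 scale, and its relative Stim1 had a log2 fold change of -0.05 that did not pass (edgeR adjusted p = 0.0604) but did, as lower, with library size only (0.00361) and with at least 50 counts in 3 samples (0.0499).

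Of the 8 listed further genes of calcineurin and NFAT, 6 had a row and 5 were tested, and 2 of these rose and 0 fell. Among all genes tested, 17.1% were called higher and 18.6% lower. No gene of the list was lower at an unadjusted edgeR p under 0.05, in DESeq2 or in limma-voom. Fkbp1a, which encodes FKBP12, the receptor of tacrolimus, rose to 236 ± 4.03 CPM in IL-10-producing libraries, against 193 ± 3.74 CPM in IL-10-negative libraries (log2 fold change 0.29, SE 0.022, edgeR adjusted p = 8.07e-11). Ppia, which encodes cyclophilin A, the receptor of ciclosporin, rose to 447 ± 9.65 against 409 ± 4.58 CPM (log2 fold change 0.13). Rcan3, a relative of Rcan1, had 82.0, 85.2 and 81.9 CPM in IL-10-producing and 82.7, 84.5 and 81.2 CPM in IL-10-negative libraries and did not pass (edgeR adjusted p = 0.92). The list's median of 0.01 turned to -0.02 with library size only, and its mean was -0.01. Nfatc4, the remaining NFATc gene, had too few counts to be tested.

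Among the kinases, transport factors and partners of NFAT, 5 of 13 rose and 5 fell (median -0.0036, and 0.00025 with DESeq2 size factors). Of all genes tested, 17.1% were called higher and 18.6% lower. With at least 50 counts in 3 samples, 5 of 12 in the list rose and 4 fell, and 5726 of 13257 genes were called. Dyrk2 and Dyrk1b, from the kinase family that phosphorylates NFAT for export, fell. Dyrk2 averaged 12.2 ± 0.181 CPM in IL-10-producing against 19.2 ± 0.799 CPM in IL-10-negative libraries (log2 fold change -0.65, SE 0.0583, edgeR adjusted p = 1.59e-09), and Dyrk1b 4.56 ± 0.491 against 8.13 ± 0.532 CPM (log2 fold change -0.82, SE 0.0967, edgeR adjusted p = 1.62e-07). Dyrk1a, of the same family, differed little, with 99.3 ± 1.75 against 104 ± 1.03 CPM (log2 fold change -0.07, edgeR adjusted p = 0.0439). Its call was lost with DESeq2 size factors (adjusted p = 0.0587), with no filter on low counts (0.0519), in DESeq2's own test (0.107) and with each library left out in turn (0.0579 to 0.217). Genes of the GSK3 and CK1 kinases, which also act on NFAT, went both ways: Gsk3b and Csnk1a1 rose by 0.11 and 0.13 on the log2 scale, Csnk1d fell by 0.12, and Gsk3a and Csnk1e did not pass (log2 fold change -0.03 and -0.0036). The general transport genes Xpo1, which encodes the export receptor, and Kpnb1, which encodes importin beta, rose to 322 ± 7.93 against 271 ± 6.67 CPM and to 629 ± 11 against 548 ± 3.07 CPM.

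Target genes of NFAT known from T cells were more often lower than higher. Of 25 listed, 23 had a row and were tested, 4 rose and 13 fell, and the median log2 fold change was -0.28 against -0.0038 over all genes. The shares called over all genes tested were 17.1% as higher and 18.6% as lower. With at least 50 counts in 3 samples, 4 of 17 in the list rose and 11 fell, and 5726 of 13257 genes were called. Among the 13 that fell, 5 were under 5 CPM in both populations. Csf2, which encodes GM-CSF, was at 5.24 ± 0.325 CPM in IL-10-producing against 20.6 ± 0.719 CPM in IL-10-negative libraries (log2 fold change -1.97, SE 0.0697, edgeR adjusted p = 2.78e-17), and Tox, a nuclear factor tied to T-cell exhaustion, at 15.3 ± 0.311 against 29.0 ± 1.99 CPM. Il2ra, the alpha chain of the IL-2 receptor, and Ctla4, an inhibitory receptor, were higher, at 5835 ± 47.4 against 4206 ± 38.7 CPM and 41.1 ± 0.3 against 23.6 ± 1.62 CPM. Ifng had 0 counts in all IL-10-producing libraries and 1.08 ± 0.27 CPM in IL-10-negative ones, at least 61.0-fold lower against a floor of 3 counts over the group, and the list median was also -0.28 with Ifng at that bound. In the same libraries the T-cell markers summed to 103 to 105 CPM in IL-10-producing against 169 to 175 CPM in IL-10-negative libraries. Without Trbc2 and Ubash3a, set apart after their values were seen, these sums were 8.27 to 8.96 against 67.7 to 70.2 CPM. The mast-cell, basophil and neutrophil markers summed to 14.1 to 16.3 against 107 to 112 CPM, and the NK-cell markers to 0.112 to 0.263 against 6.28 to 7.55 CPM. B-cell sums were 15.7 to 17.2 against 16.9 to 17.6 CPM, and macrophage sums 7.04 to 8.55 against 6.79 to 8.30 CPM. Most of these came from Cd79b, which was not called, and Chil3, which was called higher. Of the 5 B-cell markers 4 were called lower, as were 2 of the 5 macrophage markers with a row. The part of such cells in the falls was not tested. Il2ra, Il5 and Il13 of this list are also ILC2 markers.

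Target genes of NFAT5 in osmotic stress numbered 8, of which 7 were tested, 1 rose and 3 fell (median -0.14). The calls over all genes tested were 17.1% higher and 18.6% lower. Slc6a6, the taurine transporter, fell to 141 ± 3.90 CPM in IL-10-producing libraries, against 158 ± 2.56 CPM in IL-10-negative libraries (log2 fold change -0.16), and Slc38a2, a neutral amino acid transporter, to 242 ± 3.48 against 266 ± 5.07 CPM (log2 fold change -0.14). Hspa1a, an inducible HSP70 gene whose copy Hspa1b is near-identical so that its counts are uncertain, was at 0.759 ± 0.158 against 2.52 ± 0.278 CPM. Hspa1b itself was at 4.75 ± 0.347 against 5.64 ± 0.452 CPM and did not pass (log2 fold change -0.25, edgeR adjusted p = 0.0604). Slc5a3, the myo-inositol transporter, rose 1.11-fold (edgeR adjusted p = 0.049), a call lost with library size only (0.118), with the DESeq2 test (0.113), with the authors' normalized values (0.0533), with no filter on low counts (0.0649) and with each library left out in turn (0.0626 to 0.169).

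**Figure D5:**
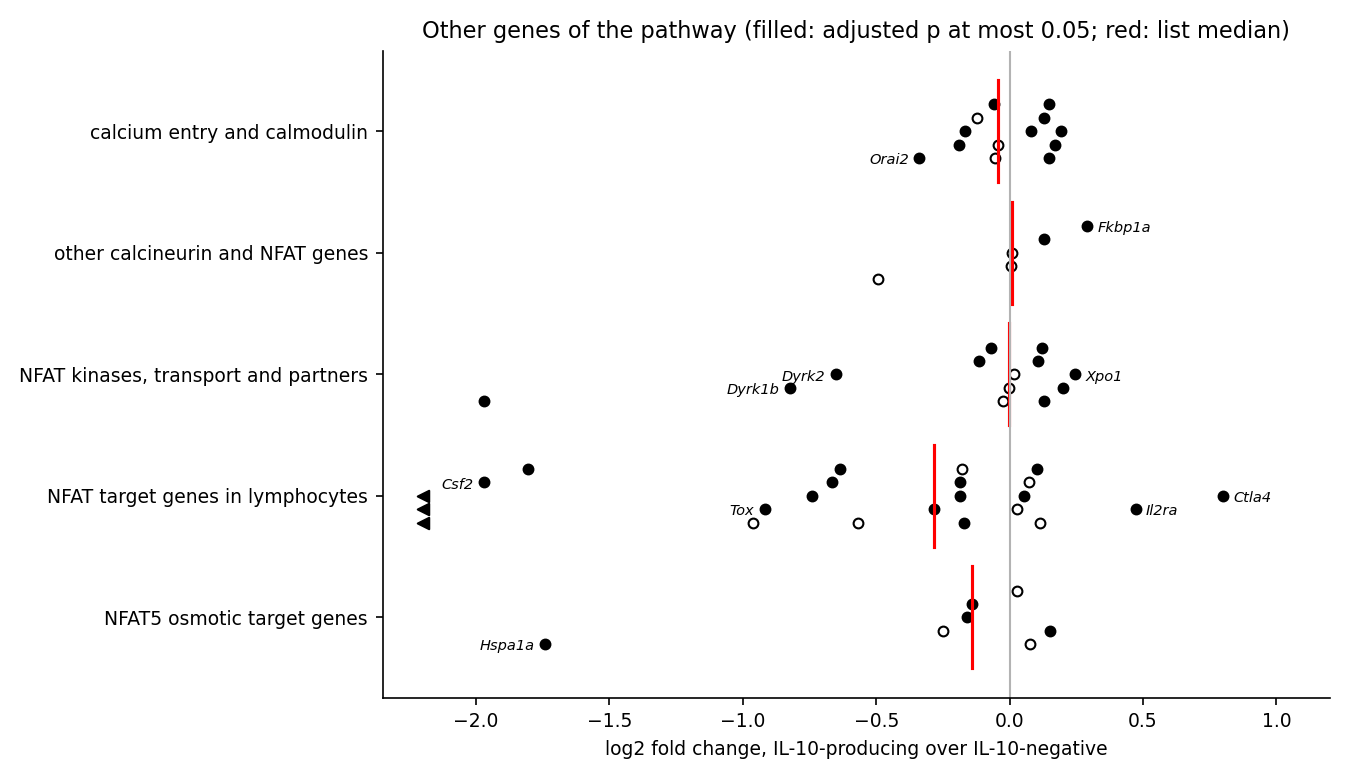
Log2 fold change (horizontal axis, IL-10-producing over IL-10-negative) of each tested gene in 5 lists around the members, filled where the adjusted p was at most 0.05, with the list median in red. Leftward triangles mark Ifng, Fasl and Cd40lg, which lie beyond the axis, and most NFAT target genes lie left of 0 while the other lists straddle it.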

How the data were processed

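The 6 libraries were made from 10 ng of RNA each. The submitters' processing notes name STAR 2.5.3a, bcl2fastq 2.17.1.14, Partek and build mm10, and the annotation release, strand setting and selection of transcripts are not given in the sources used here. The authors deposited estimated counts per gene (50.2% of values not whole within 1e-09) and, for 13824 genes including all 10 members, a normalized signal between libraries. Estimated counts were rounded and tested with edgeR 4.0.16 in R 4.3.3 (quasi-likelihood F test, TMM, group as the only term, filterByExpr with minimum count 10 and minimum total 15). Adjustment was by Benjamini and Hochberg over the 16654 genes tested, with a threshold of 0.05. SE is the absolute log2 fold change over the square root of F. The script was checked on simulated counts.

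Alternatives were scaling by library size only or by DESeq2 size factors, no filter or at least 50 counts in 3 samples, DESeq2 1.42.0, limma-voom, limma 3.58.1 on the authors' normalized values (log2, plus 1), a block for replicate number, glmTreat, the median transcript length, and leaving out each library. Members and lists were chosen with earlier results of these data known. The text names all members and, from each list, the 4 genes with the smallest p among those past the threshold, of which 1 is not reported here. Orai1, Plcg1, Calm3, Stim1, Stim2, Rcan3, Nfatc4, Dyrk1a, Gsk3a, Gsk3b, Csnk1a1, Csnk1d, Csnk1e, Hspa1b, Trbc2, Ubash3a, Cd79b, Chil3, Ifng, Fasl and Cd40lg were named after their values were seen. Marker lists, too, come from no independent data. Positions are from the count table, 1-based, with the listed stop less 1, and equal those of GENCODE M21 for all 10 members, 9 of them with the same versioned identifier. Replicate pairs within a population had a median chi-square over genes of 2.39 to 2.96 times that of Poisson sampling, so no library was a copy. The mean over genes, relative to Poisson, was 2.91 to 3.19 for IL-10-negative pairs and 4.97 to 11.3 for IL-10-producing pairs. Precision beyond counting error comes from the spread over 3 libraries per population. In edgeR each gene's spread is moderated towards values estimated over all genes tested, so an SE or p does not rest on that gene's libraries alone.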

Additional observations from a re-analysis of the deposited data

How the results depend on the processing

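The calls of Nfatc2, Nfat5, Rcan1, Ppp3ca and Ppp3cb kept their direction and their side of the threshold in the 8 settings of scaling, filter, test or design other than glmTreat and without each library in turn. Against a change of 1.2-fold, glmTreat called 0 members (0 higher, 0 lower, 0 at an unadjusted p under 0.05) and 1317 genes in all (407 higher, 910 lower), which follows from its stricter null hypothesis. With the median transcript length, 1 of 10 members kept its rank per kb in IL-10-producing and 2 in IL-10-negative libraries. With that length, an alternative chosen after seeing the data, shares in IL-10-producing and IL-10-negative libraries were 42.1% and 36.7% for Nfatc2, 38.4% and 41.0% for Nfatc3, 8.94% and 9.72% for Nfatc1, 10.6% and 12.6% for Nfat5, 49.6% and 53.3% for Ppp3ca, 31.1% and 28.8% for Ppp3cb and 19.3% and 17.8% for Ppp3cc. Each had the same direction between the populations as with the longest transcript. The length of a gene is the same in every library, so for Nfatc2, Nfat5 and Ppp3ca that direction follows from their fold changes and is no separate check. The log2 fold changes of Ppp3r1 and Cabin1, not past the threshold in any setting, turned to -0.029 and -0.019 with library size only, and leave-one-out values ran from -0.0095 to 0.014 for Ppp3r1 and from -0.011 to 0.041 for Cabin1. Without each library in turn, 5 to 7 members (2 or 3 higher, 3 or 4 lower) and 5232 to 5519 genes (2478 to 2696 higher, 2739 to 2823 lower) were called. Same-numbered libraries did not deviate together (r = -0.019, -0.02 and -0.041, and 0 of 6 libraries correlated best with its own number), so the numbers are not read as pairs. With the replicate block, 6 members and 5817 genes were called, and Nfatc1 was not (adjusted p = 0.0546), nor were Dyrk1a (0.0529) and Slc5a3 (0.0647). Depth limits Rcan1 most, with 406 to 686 counts per library. Of the changes in calls of single genes or lists, the cause was not tested.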
